A study of Homo sapiens with 2 samples.

Results

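Notch signaling passes a message between touching cells. A ligand of the Jagged or Delta family on one cell binds a Notch receptor on its neighbor, the receptor is cut by proteases, and the freed intracellular part enters the nucleus. There it joins RBPJ, the DNA-binding protein of the pathway, and switches on genes such as HES1, HEY1 and HEY2, whose products are basic helix-loop-helix repressors. In the developing brain the pathway holds neural progenitors back from becoming neurons, and it has been studied in gliomas and glioma stem-like cells.

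The 10 genes described here are the receptors NOTCH1, NOTCH2 and NOTCH3, the ligands JAG1, JAG2 and DLL1, the mediator RBPJ, and the targets HES1, HEY1 and HEY2. They were chosen by name, and every probe set annotated to 1 of these genes alone was used, 28 of 54613 probe sets, out of 19775 genes named on the array. All of the RNA came from U87 cells, an established human glioblastoma line kept in serum. One array (n = 1) held RNA of cells transfected with HOXD9 siRNA-2 and the other (n = 1) RNA of cells transfected with a non-silencing control siRNA, each at 50 nM with Lipofectamine RNAiMAX, on Day 2. The knockdown thus rests on 1 siRNA sequence in 1 cell line, and no SD, p-value or test between conditions could be given.

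Values are the deposited signal intensities of Affymetrix U133 Plus 2.0 arrays. Signals of different probe sets are not comparable as levels, so genes were not ranked against each other. A log2 ratio is that of HOXD9 siRNA over control siRNA, and the threshold is the study's, more than 2-fold. The ratio over all probe sets was centered on -0.27, and scaling both arrays to one median adds 0.30 to every log2 ratio. Values after this scaling are called centered. A probe set passed the filter when its signal, averaged over both arrays, was at least 19.8, the middle of all probe sets, and a gene took its brightest probe set by that average. The highest signal of the Bacillus subtilis control probe sets on either array, 18.4, served as background. Without replicates, error could not be measured. How far probe sets for the same gene differed in log2 ratio is given instead, as a description of spread. Read on the same 2 arrays, it holds no variation between cultures, transfections or arrays. Pooled over genes, the SD of log2 ratios within a gene was 0.57 among dim, 0.33 among middling and 0.25 among bright probe sets, 3 classes of equal number.

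The targeted gene itself was dim. HOXD9 read 5.58 in HOXD9 siRNA cells and 19.7 in control siRNA cells on one probe set, and 11.4 and 9.33 on the other, so that only the 19.7 stood above background. Of 9 glioma and mesenchymal markers, 5 (VIM, NES, CD44, S100A6 and FN1) were above background on both arrays, whereas GFAP, S100B, SOX2 and OLIG2 were not. Among markers of other cells, 2 of 3 neuronal (SNAP25 and SYT1), 1 of 3 endothelial (PECAM1) and 0 of 3 leukocyte genes were above it on both arrays. CDKN2A, deleted in U87, reached 19.5 in HOXD9 siRNA cells and 26.9 in control siRNA cells on its brightest probe set, above the 18.4 taken as background. Ratios in which a signal lies under 26.9 are therefore less certain than the others. Among such signals are all of HOXD9 above, and the 21.2 of HES1 and both of JAG2 below. A bound, given below as at least a fold, is taken against 18.4 and would be smaller against 26.9.

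Of the 19 member probe sets that passed the filter, the 2 with the lowest ratios belonged to the targets HES1 and HEY2. HEY2 was lower by more than 2-fold in HOXD9 siRNA cells as deposited, with HES1 past 2-fold on one of its probe sets, whereas NOTCH2, JAG1 and the bright RBPJ probe sets stayed within a log2 ratio of -0.51 to 0.21. DLL1 lay within the background on both arrays.

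The start regions of HES1 and HEY2 are shown because these are the members with a probe set past 2-fold above background, and RBPJ acts on its targets through DNA. The letters TGGGAA, the core of the sequence RBPJ binds, were searched on both strands (TTCCCA on the other) in RefSeq windows of 300 bases, from 250 before to 50 after each gene start. Capitals mark each match. The HES1 stretch is chr3:194135898-194136147 and that of HEY2 chr6:125749382-125749634, both on the plus strand of GRCh38.p14. Each is printed up to the start, or to the end of the match that spans it.
HES1: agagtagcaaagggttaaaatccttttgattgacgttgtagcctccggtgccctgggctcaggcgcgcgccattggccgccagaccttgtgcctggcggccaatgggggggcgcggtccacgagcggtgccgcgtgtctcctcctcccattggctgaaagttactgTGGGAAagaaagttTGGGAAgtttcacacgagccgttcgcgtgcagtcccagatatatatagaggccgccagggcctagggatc
HEY2: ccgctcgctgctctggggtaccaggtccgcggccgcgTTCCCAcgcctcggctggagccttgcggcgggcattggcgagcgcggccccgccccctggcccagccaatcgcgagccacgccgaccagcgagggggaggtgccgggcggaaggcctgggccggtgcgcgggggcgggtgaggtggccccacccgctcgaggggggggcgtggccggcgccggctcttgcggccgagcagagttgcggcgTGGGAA

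HES1 had 2 matches, beginning 84 and 70 bases before the start and both reading TGGGAA in the direction of the gene. HEY2 also had 2, one on the opposite strand 213 bases before the start and one that spans it. Of the 8 member genes with a window, the third with a match was RBPJ, in 1 of its 5 windows, and none was found in the windows of NOTCH1, NOTCH2, NOTCH3, JAG1 and JAG2. The letters occur in 24.0% of 35116 windows of this length, so a match is common. It describes the sequence and was not measured as a bound site in U87 cells. DLL1 and HEY1 had no window and were not searched.

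HES1, a repressor that keeps neural progenitors undifferentiated, was read by 3 probe sets. On 203394_s_at its signal was 21.2 in HOXD9 siRNA cells and 53.1 in control siRNA cells, a log2 ratio of -1.33 or 39.8% of the control. On 203395_s_at it was 37.1 in HOXD9 siRNA cells and 48.6 in control siRNA cells, a log2 ratio of -0.39. Both read lower after HOXD9 silencing, but their log2 ratios lay 0.94 apart, an SD of 0.67 where the pooled SD at this signal was 0.57. The lower one stayed past 2-fold when centered (-1.03) but fell just short of it after loess, and the higher one stood at -0.09 when centered. The 21.2 behind the lower ratio is also under the 26.9 of CDKN2A, so that ratio is less certain. The third probe set read 1.63 in HOXD9 siRNA cells and 3.39 in control siRNA cells, within the background of both arrays, and no fold is given for it.

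The gene value of HES1 depends on which of these probe sets stands for it. The mean signal was 42.9 for 203395_s_at and 37.2 for 203394_s_at, so the brightest by mean gives -0.39, while on the control siRNA array alone 203394_s_at was the brighter one and would give -1.33. By that second rule, chosen after seeing the data, 2 of 9 member genes (HES1 and HEY2) were lower by more than 2-fold and 0 higher, where 5.37% of all genes were lower and 0.49% were higher.

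HEY2, a related repressor known from heart and vessel development, had 1 probe set above background. Its signal on 222921_s_at was 36.6 in HOXD9 siRNA cells and 76.4 in control siRNA cells, a log2 ratio of -1.06 or 48.0% of the control. When centered, the ratio was -0.76 and no longer past 2-fold. The other probe set, 219743_at, went the opposite way with 15.3 in HOXD9 siRNA cells and 3.16 in control siRNA cells. Both of these signals lay within the background, so the apparent rise has no fold and does not bear on the direction of HEY2.

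HEY1 is a close relative of HEY2 and another direct target of the pathway. On 44783_s_at its signal was 77.5 in HOXD9 siRNA cells and 114 in control siRNA cells, a log2 ratio of -0.56. On 218839_at it was 35.7 in HOXD9 siRNA cells and 61.5 in control siRNA cells, a log2 ratio of -0.79. The probe sets lay 0.22 apart and on the same side of the median of all genes, with centered ratios of -0.26 and -0.48. Neither passed 2-fold, and the brighter one differed from 0 by less than the SD of 0.33 once centered.

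Over the 3 targets, all 5 probe sets that passed the filter read lower, as did 81.9% of all that passed it (all 5 when centered, where 47.4% of all did), with a median log2 ratio of -0.79 as deposited and -0.48 when centered. Of all 27307 probe sets that passed the filter, 6.69% fell beyond 2-fold on the lower side and 0.615% on the higher side as deposited, or 2.94% and 1.51% when centered. The targets had 2 of 5 lower as deposited and 1 of 5 when centered, with 0 higher. With so few probe sets, read on the same pair of arrays and 2 of them from each of HES1 and HEY1, these shares are a description. In bulk RNA, fewer cells with the transcript and less transcript per cell cannot be told apart.

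**Figure D1:**
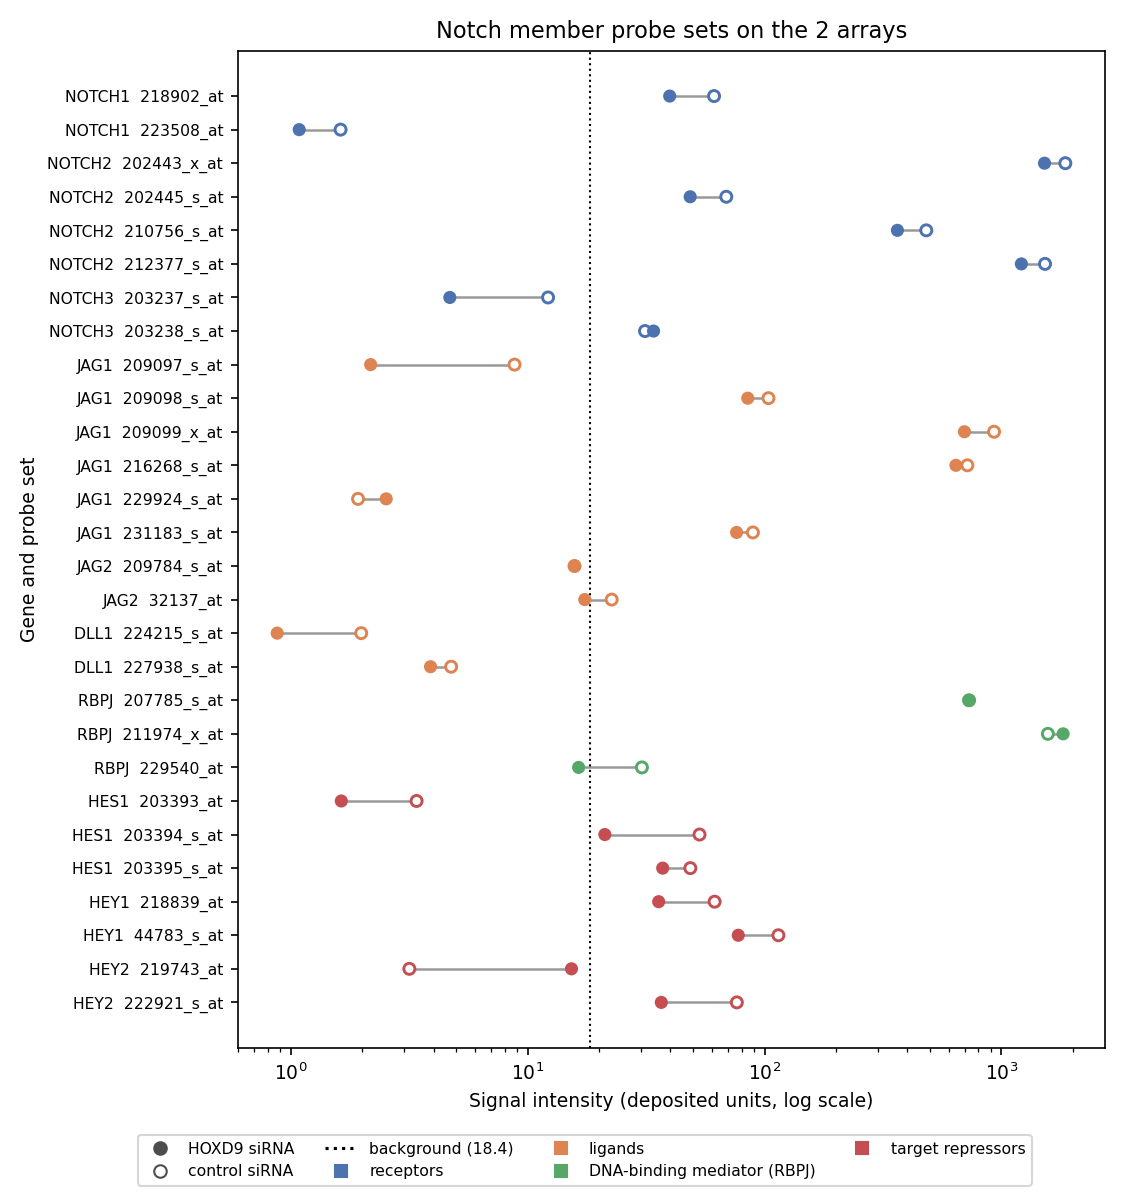
Signal intensity (x axis, log scale) of each of the 28 member probe sets (y axis) in HOXD9 siRNA cells (filled) and control siRNA cells (open), n = 1 array each, colored by role, with the background of 18.4 dotted. The filled point lies left of the open one in every target probe set above background, whereas the 2 bright RBPJ probe sets show nearly equal signals or a slight shift to the right.

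Of the receptors, NOTCH2 was read by 4 probe sets, all above background. On its brightest, 202443_x_at, the signal was 1522 in HOXD9 siRNA cells and 1863 in control siRNA cells, a log2 ratio of -0.29. The other 3 gave -0.33, -0.41 and -0.51, the last on the dimmest of them with 48.5 in HOXD9 siRNA cells and 68.9 in control siRNA cells. The 4 ratios spanned only 0.21, and when centered they ran from -0.21 to 0.01, so that NOTCH2 was lower as deposited and level with the typical probe set after scaling.

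NOTCH1, the receptor best known from T-cell leukemia, passed the filter on 1 of 2 probe sets. Its signal was 39.8 in HOXD9 siRNA cells and 61.2 in control siRNA cells, a log2 ratio of -0.62, or -0.32 when centered. That value is little more than the SD of 0.57 for such signals, and less than it when centered. The other NOTCH1 probe set read 1.08 in HOXD9 siRNA cells and 1.62 in control siRNA cells, both within the background.

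NOTCH3, a receptor of vascular smooth muscle and pericytes, gave 34.0 in HOXD9 siRNA cells and 31.3 in control siRNA cells on its brighter probe set, a log2 ratio of 0.12, or 0.42 when centered. Its other probe set gave 4.69 in HOXD9 siRNA cells and 12.2 in control siRNA cells. Both of these lay within the background of 18.4, although the 12.2 stood just above the highest control transcript of its own array, 11.4. Of the 3 receptors, NOTCH3 alone had a ratio above 0 on its brightest probe set as deposited, by less than the spread between probe sets.

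Of the ligands, JAG1 was read most fully. JAG1 binds Notch receptors on neighboring cells and is the gene mutated in Alagille syndrome. On 209099_x_at, its brightest probe set, the signal was 699 in HOXD9 siRNA cells and 931 in control siRNA cells, a log2 ratio of -0.41. The other 3 above the filter gave -0.16, -0.23 and -0.29. When centered, the 4 ratios ran from -0.11 to 0.14 and their sign was split, so no direction of JAG1 held under scaling. Its 2 remaining probe sets read 2.17 and 2.52 in HOXD9 siRNA cells and 8.79 and 1.92 in control siRNA cells, within the background.

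JAG2 and DLL1, the other ligands, lay at the limit of detection. JAG2 gave 17.4 in HOXD9 siRNA cells and 22.6 in control siRNA cells on its brighter probe set. This probe set passed the filter through its control siRNA signal alone, which favors a lower ratio. Taken against the background JAG2 was at least 1.23-fold lower as deposited. The bound was 0.999 when centered, so that no fall of JAG2 could be bounded. Its other probe set gave 15.7 in HOXD9 siRNA cells and 15.8 in control siRNA cells. For DLL1, the Delta-type ligand of neural progenitors, the 2 probe sets read 3.89 and 0.875 in HOXD9 siRNA cells and 4.75 and 1.98 in control siRNA cells. A change of DLL1 was not detectable on these arrays.

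RBPJ, through which all Notch receptors act on DNA, had the highest ratio of the 9 genes that passed the filter. On 211974_x_at its signal was 1823 in HOXD9 siRNA cells and 1572 in control siRNA cells, a log2 ratio of 0.21, or 0.51 when centered. On 207785_s_at the signals were 729 in HOXD9 siRNA cells and 731 in control siRNA cells, a log2 ratio of -0.003, or 0.30 when centered. Probe sets ending in _x_at or _s_at can bind more than 1 transcript, and both bright RBPJ probe sets are of this kind. So are all the HES1 and HEY2 probe sets that passed the filter. The third, 229540_at, gave 16.4 in HOXD9 siRNA cells and 30.3 in control siRNA cells. It was at least 1.65-fold lower against the background, and at least 1.34-fold lower when centered. This probe set passed the filter through its control siRNA signal alone, which favors a lower ratio. RBPJ probe sets thus differed in direction, with the lower one near the background.

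**Figure D2:**
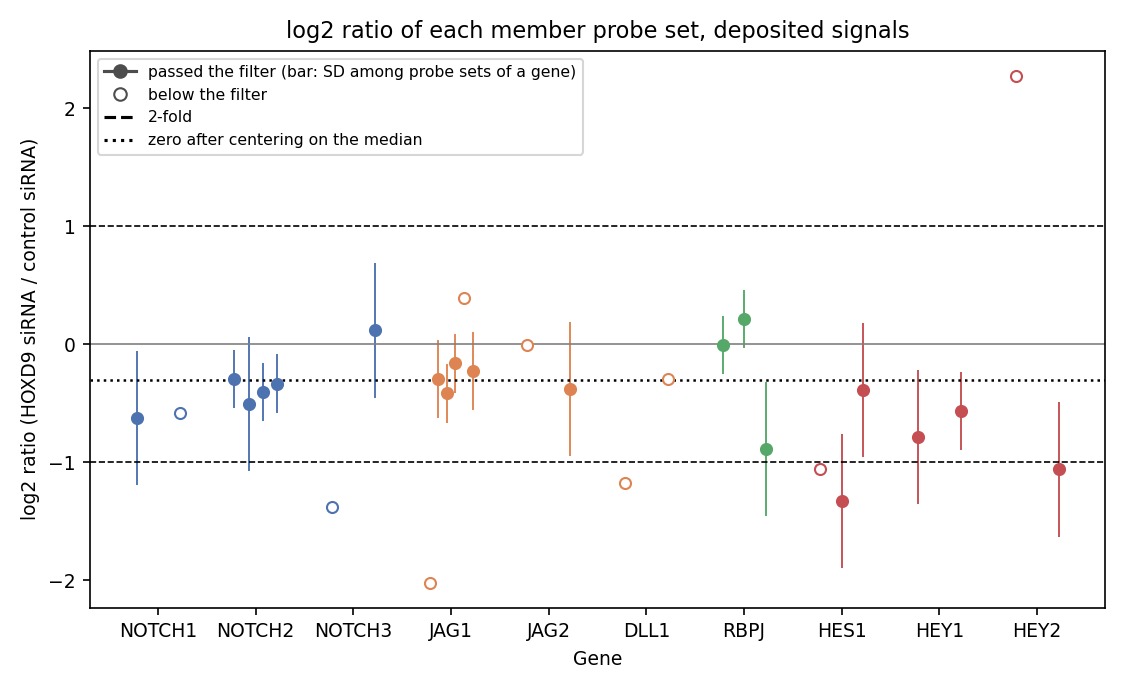
Points show log2 ratios of single probe sets (y axis, HOXD9 siRNA over control siRNA, deposited signals) of a member gene (x axis), filled where it passed the filter and open where it did not, with a bar of 1 SD among probe sets for the same gene in its signal class. Dashed lines mark 2-fold and the dotted line zero after centering; among filled points only 1 of HES1 (-1.33) and 1 of HEY2 (-1.06) lie below -1, and the open HEY2 point at 2.27 comes from signals within the background.

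Taken by gene, 9 of the 10 passed the filter, all but DLL1. One of the 9, HEY2, was lower by more than 2-fold and 0 were higher, where 4.95% of all 11624 genes were lower and 0.516% were higher. When centered, 0 were lower and 0 higher, where 2.31% of all genes were lower and 1.17% were higher. The median log2 ratio of the 9 was -0.39, against -0.25 over all genes, or -0.09 and 0.05 when centered. The 3 targets had a median of -0.56 and the 6 receptors, ligands and RBPJ one of -0.33, or -0.26 and -0.03 when centered, and all 3 targets were below 0 after centering, as were 3 of the other 6 and 43.7% of all genes. The share of members past 2-fold rests on 1 gene, and on none when centered.

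In the distribution of all genes, 4.22% had a ratio as low as that of HEY2. The same share was 15.9% for NOTCH1, 19.1% for HEY1, 30.9% for JAG1, 33.6% for HES1, 34.5% for JAG2 and 44.6% for NOTCH2. RBPJ stood at the other side, with 93.5% of all genes at or below its ratio, and NOTCH3 with 90.3%. These shares describe the pair of arrays and are not p-values.

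**Figure D3:**
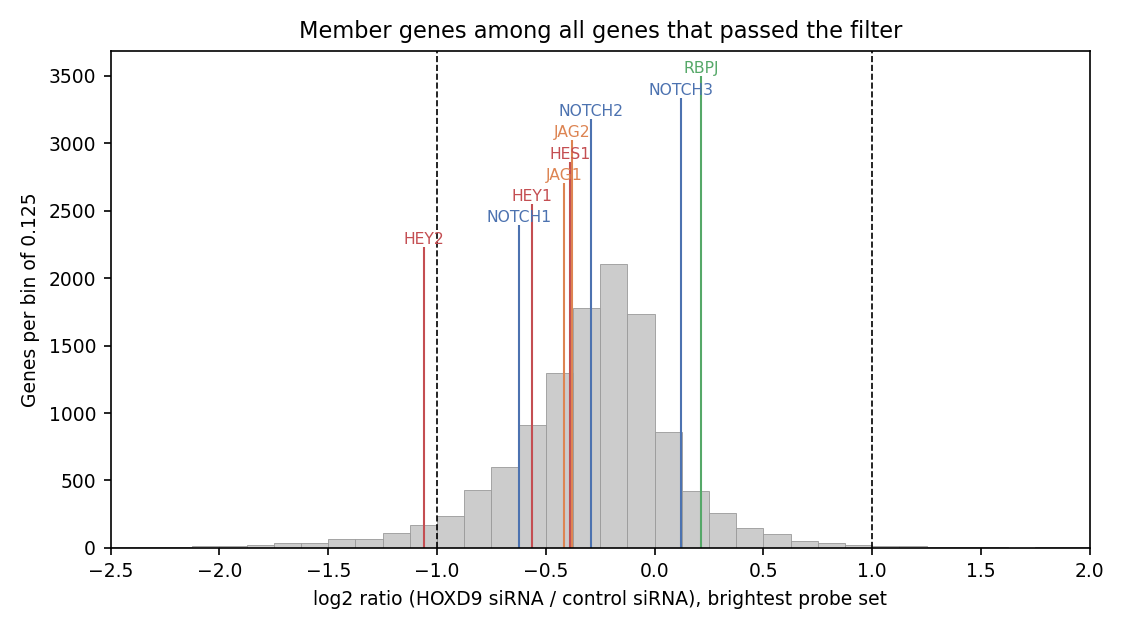
The gray bars count genes per bin of 0.125 of log2 ratio (x axis, HOXD9 siRNA over control siRNA, brightest probe set) among 11624 genes that passed the filter, and lines mark the 9 member genes, colored by role as in the other plots, their heights set for legibility only. The few genes beyond the axis limits are not drawn, and JAG2 is placed at its measured ratio although its HOXD9 siRNA signal lay within the background. HEY2 at -1.06 is the only member past the dashed 2-fold lines, and RBPJ at 0.21 is the highest.

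Other genes of the pathway were read from lists of 86 genes, of which 79 had a named probe set and 62 passed the filter. Of the 62, 5 were lower by more than 2-fold and 0 higher as deposited by measured ratio, where 4.95% of all genes were lower and 0.516% higher. When centered, 2 were lower and 2 higher, where 2.31% of all genes were lower and 1.17% higher. Taken against the background, 4 were lower and 0 higher as deposited, and 1 (FURIN) was lower and 0 higher when centered. Their median log2 ratio was -0.21, or 0.09 when centered, near that of all genes.

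Among these 62 genes, the largest fall with both signals above background was that of FURIN, the protease that cuts the receptor precursor on its way to the cell surface. Its signal was 30.1 in HOXD9 siRNA cells and 97.4 in control siRNA cells, a log2 ratio of -1.69, and it was past 2-fold also when centered (-1.39). Only 1 probe set read FURIN, in the class with the SD of 0.57. The other 7 genes of the cleaving proteases and gamma-secretase that passed the filter ran from -0.39 for APH1A to 0.07, and ADAM10, which makes the ligand-dependent cut, read 1574 in HOXD9 siRNA cells and 1736 in control siRNA cells. The median of these 8 genes was -0.13, with 1 lower and 0 higher by more than 2-fold, where 4.95% and 0.516% of all genes were.

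None of 8 nuclear coactivators, 11 corepressors, 7 glycosyltransferases and ligand E3 ligases or 11 genes of receptor turnover and inhibition passed 2-fold on its brightest probe set. Their medians were -0.21, -0.21, -0.27 and -0.21, close to the -0.25 of all genes. MAML1, which joins RBPJ and the Notch intracellular part to activate targets, had the lowest ratio of the coactivators at -0.73, or -0.43 when centered. Its signal was 229 in HOXD9 siRNA cells and 380 in control siRNA cells. The acetyltransferase EP300 gave -0.70 and, on a dimmer probe set, -0.32, or -0.40 and -0.02 when centered. Among the corepressors, SIN3A gave -0.46 on its brightest probe set and -0.56 and -0.97 on dimmer ones. When centered these were -0.16, -0.26 and -0.67. L3MBTL3, a protein that binds RBPJ, read 33.0 in HOXD9 siRNA cells and 21.8 in control siRNA cells. Its log2 ratio was 0.60, or 0.90 when centered, in the class with the SD of 0.57.

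MIB2, an E3 ligase that acts on Notch ligands, gave -0.60, -0.59 and -0.55 on the 3 probe sets that passed the filter. When centered these were -0.30, -0.29 and -0.25, in the class with the SD of 0.57. Its relative MIB1 ran from -0.37 to 0.18 over 4, or from -0.07 to 0.48 when centered. DTX3L, of the Deltex family of E3 ligases, read 280 in HOXD9 siRNA cells and 538 in control siRNA cells, a log2 ratio of -0.94, or -0.64 when centered. NUMB, an inhibitor of Notch shared out unequally at cell division, gave -0.52, or -0.22 when centered, in the class with the SD of 0.57.

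Of the other receptors and ligands, 5 passed the filter, with a median of -0.12. NOTCH4, an endothelial receptor, read 14.0 in HOXD9 siRNA cells and 28.8 in control siRNA cells. Its measured ratio was -1.05, but against the background it was at least 1.57-fold lower, or 1.27-fold when centered. DLK2, a non-canonical ligand, read 30.0 in HOXD9 siRNA cells and 16.2 in control siRNA cells and was at least 1.63-fold higher, as deposited and when centered. Each passed the filter only through the array where it was higher, NOTCH4 on control siRNA and DLK2 on HOXD9 siRNA.

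The list of other HES and HEY genes and further targets had 12 genes above the filter, 3 of them lower by more than 2-fold (4.95% of all genes) and 0 higher (0.516%), with a median of -0.36, or -0.06 when centered. The 3 were CCND3, ID3 and BCL2. CCND3, a D-type cyclin of the G1 phase, read 228 in HOXD9 siRNA cells and 547 in control siRNA cells, a log2 ratio of -1.26, or -0.96 when centered. ID3, a dominant-negative helix-loop-helix protein that also answers to BMP, read 546 in HOXD9 siRNA cells and 1102 in control siRNA cells, a log2 ratio of -1.01, or -0.71 when centered. BCL2, which holds back apoptosis, was at least 2.12-fold lower against the background of 18.4, and at least 1.72-fold when centered. It passed the filter on 1 of 4 probe sets, through its control siRNA signal of 38.9 alone, and the other 3, within the background, had measured ratios of -0.40, 0.47 and 1.24. When centered, none of the 12 was past 2-fold against the background. HES7 reached a measured 1.01, its control siRNA signal of 19.4 lying within the background at that scale. CCND3, ID3 and BCL2 are targets of several other pathways too, so the list is not specific to Notch.

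**Figure D4:**
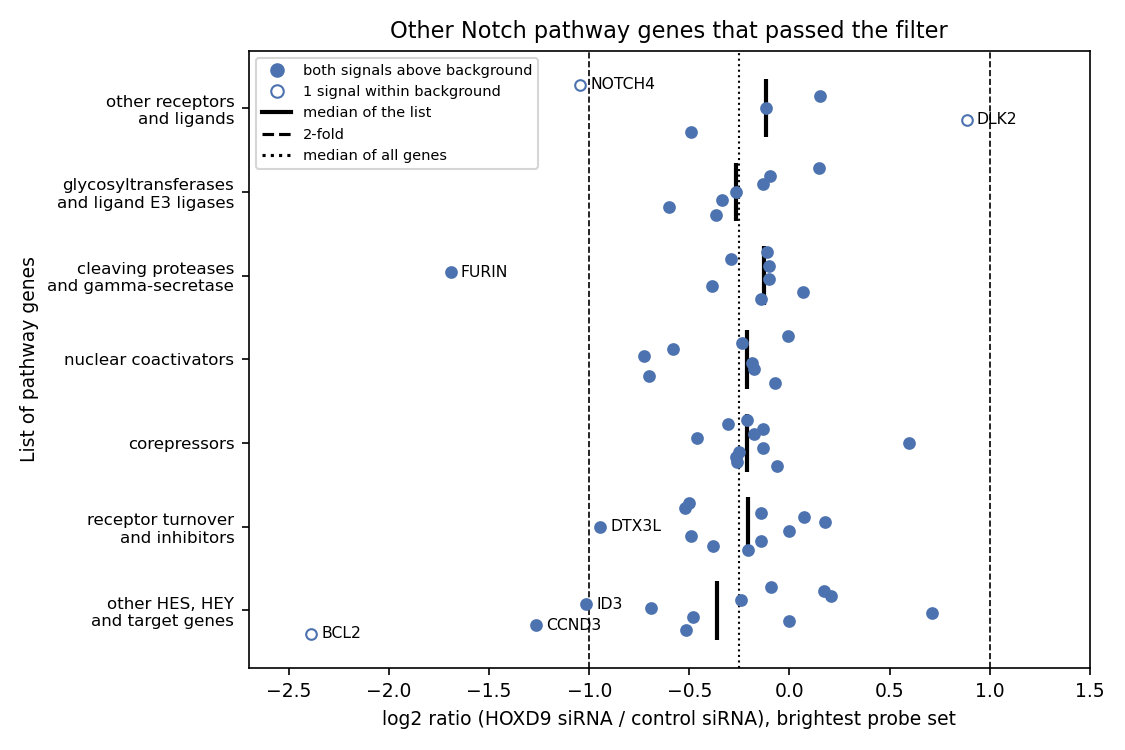
Each point is the log2 ratio (x axis, HOXD9 siRNA over control siRNA, deposited signals) of 1 gene above the filter in 7 lists of other pathway genes (y axis), open where 1 of the 2 signals lay within the background. Thick bars are the medians of the lists, the dotted line the median of all genes (-0.25) and dashed lines 2-fold; FURIN at -1.69 and CCND3 at -1.26 are the lowest filled points.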

How the data were processed

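U87 cells transfected with HOXD9 siRNA-2 or control siRNA gave 1 Affymetrix U133 Plus 2.0 array each. The authors deposited a linear signal intensity for each probe set. GCOS, the Affymetrix software, is named in the submitters' processing notes. How it was set, to what target the arrays were scaled, and which signals it called detected is not given in the sources. The median signal was 18.3 on the HOXD9 siRNA array and 22.5 on the control siRNA array.

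Log2 ratios covered 54613 probe sets, the 62 controls being left out. Names came from the platform annotation, updated through Entrez numbers, with 41091 probe sets having 1 gene, 1801 several and 11721 not listed. The background came from 27 Bacillus subtilis control probe sets, which reached 18.4 on the HOXD9 siRNA array and 11.4 on the control siRNA array. A signal at or under 18.4 was set to it, and the fold was given as a bound. SDs among probe sets were pooled over 6081 genes with at least 2 above the filter.

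Members, pathway lists and markers were chosen with earlier results of these data known. Named genes are the members, HOXD9, and in each list the genes past 2-fold and the 2 with the largest absolute ratio, with ADAM10, HES7 and the genes named only under an alternative chosen after their values were seen. Alternatives were median centering, quantile normalization, loess (fraction 0.3), no filter, a stricter filter (75.7, the 70th percentile), a floor at each array's 20th percentile, leaving out _x_at and _s_at probe sets, averaging probe sets, and each array's own background. Scaling and calling past 2-fold were tested on simulated data, with changes well past 2-fold and less noise than the spread among dim probe sets here. Bounds, pooled SDs and the choice of probe set were not tested in this way. Promoter windows are RefSeq's for GRCh38.p14. Software was Python 3.11.15 with statsmodels 0.14.6, pandas 2.3.3 and numpy 2.4.6. Precision is limited by having 1 array a condition.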

Additional observations from a re-analysis of the deposited data

How the results depend on the processing

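Scaling decided the count of member genes lower by more than 2-fold. It was 1 as deposited and 0 after centering on the median, quantile normalization and loess, and also 0 with the filter at the 70th percentile or without _x_at and _s_at probe sets, where 4 members were left. Taking the probe set brightest on the control siRNA array alone, a choice made after seeing the data, gave 2, since HES1 then stood at -1.33, and 5.37% of all genes were lower. Its probe set 203394_s_at passed 2-fold after centering (-1.03) and quantile normalization (-1.01) and fell just short of it after loess. Centering adds the same 0.30 to every log2 ratio, which exceeds only the SD of 0.25 of bright probe sets. Whether a gene moved under centering was thus set by its signal class, and dim genes such as HES1 shifted as much. Single genes moved by more than the spread between probe sets as follows. After centering NOTCH2 stood at 0.0079, JAG1 at -0.11 and RBPJ at 0.51, after quantile normalization JAG1 at -0.16 and HEY1 at -0.22, and after loess HEY1 at -0.23. RBPJ stood at -0.89 without _x_at and _s_at probe sets and at -0.23 as a mean. In the wider lists, centering, quantile normalization and loess each gave 0 lower and 1 higher among other receptors and ligands, and 1 lower and 1 higher among other targets. Without a filter these were 2 lower and 2 higher, and 5 lower and 3 higher, with 1 glycosyltransferase lower (LFNG), 1 corepressor lower (TLE2) and 1 higher (RBPJL), and 2 turnover genes higher (DTX1 and DTX4). The genes added by dropping it, also MFAP5, DLL4, DLK1, HES4, HES5, HEYL, GFAP and FABP7, are too dim for the filter. With the stricter filter 0 receptors and ligands and 0 proteases were lower, and averaging gave 1 turnover gene lower, NUMBL. The other 249 values of these results under an alternative moved by less than the spread, or by no more than 1.5 times for counts. Some of these could not have moved. Medians of lists were judged against the SD of 0.41 over all probe sets, which is more than the 0.30 of centering. A gene with 1 probe set above the filter has the same value as a mean. Each array's own background could not change the bounds of JAG2 and RBPJ. Both are taken against the HOXD9 siRNA array, whose 18.4 is also the common background. No paired analysis was possible because each group has 1 array, and leaving out a replicate was not possible for the same reason.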

Other observations

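NOTCH2 has near-identical partial copies, the NOTCH2NL genes, whose transcripts its probe sets may also bind. A probe set annotated to NOTCH2NLA alone read 706 in HOXD9 siRNA cells and 845 in control siRNA cells, a log2 ratio of -0.26, or 0.04 when centered. Another, annotated to NOTCH2 and its copies together, read 165 in HOXD9 siRNA cells and 183 in control siRNA cells, a log2 ratio of -0.15. Signals of NOTCH2 itself and of the copies cannot be told apart on such probe sets.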
